A study of Mus musculus with 17 samples.

Results

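The myelin genes described here are Mbp, Mog, Mag, Mobp, Cnp, Opalin and Cldn11, chosen by name as genes that oligodendrocytes express to build or maintain the myelin sheath. All 7 were found among the 18193 genes named by a single symbol on the Affymetrix mouse array, with 21 of the 45037 probe sets: 8 for Mbp, 5 for Mobp, 3 for Cnp, 2 for Opalin and 1 each for Mog, Mag and Cldn11. No filter on low values was applied, so all 21 entered every test. The 17 arrays carried a single mRNA preparation from the brain cortex of adult female C57BL/6 mouse, and the labels name no altered gene and no treatment of the animal. Bulk is 1 array with 5 µg of this mRNA that was not diluted and not put through the preamplification. The other 16 arrays carried dilutions of the same mRNA to 10, 1 or 0.1 pg that were each amplified separately, in a total of 2 or 4 rounds of in vitro transcription. With 2 rounds there is 1 array of 10 pg and there are 3 arrays of 1 pg and 3 of 0.1 pg. With 4 rounds each of the 3 inputs has 3 arrays. The replicates are thus repeated amplifications of 1 tissue sample and not animals, and every p-value below measures the spread between amplifications.

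Myelin is the stack of membrane that oligodendrocytes wrap around axons, and its transcripts serve as markers of these cells in brain tissue. Mbp (myelin basic protein) binds the cytoplasmic faces of the membrane together, and its mRNA is carried along the oligodendrocyte's processes and translated near the sheath. Mobp is a small basic protein of the same compact layers. Cnp, a phosphodiesterase that binds the cytoskeleton, lies in the channels of the sheath that keep their cytoplasm. Mag is an adhesion molecule on the membrane facing the axon, and Mog lies on the outermost surface of the sheath. Cldn11 (claudin 11) forms the tight junctions between the wraps, and Opalin is a membrane glycoprotein of mature oligodendrocytes. In tissue RNA, fewer cells of a type and less RNA per cell cannot be told apart.

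Levels are given in log2 units relative to the median of all probe sets on the same array, so 0 is the median. Each array was also scaled to a common span, so 1 is only about a doubling on the linear scale. Because probe sets differ in how brightly they bind, each probe set was tested only against itself across arrays. Places above or below the array median, percentiles and the choice of the highest mean still carry these differences in brightness. The array that carried 10 pg after 2 rounds has only 872 distinct values among its probe sets, and 5 of the 21 myelin probe sets share 1 level there, -0.62, with 9.29% of all probe sets of the array. On the 0.1 pg arrays after 2 rounds up to 4 myelin probe sets are tied in this way. Over the other 4 replicated groups the largest tie held 3. Values in such ties have no order.

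In bulk, 17 of the 21 probe sets lay above the array median, and their median percentile was 79.2. Of 24 other genes of myelin and mature oligodendrocytes, each read by 1 probe set, 18 were above the median in bulk, as were 12 of 14 neuron markers, 8 of 12 astrocyte markers and 1 of 4 Schwann cell markers. After 2 rounds of amplification the number of myelin probe sets above the median was 15 for the 10 pg input, 13 for 1 pg and 8 for 0.1 pg. With 4 rounds these numbers were 14, 13 and 9. The median percentile of the 21 was 59.7 and 46.3 at 1 and 0.1 pg after 2 rounds, and 66.5, 52.6 and 44.1 at 10, 1 and 0.1 pg after 4 rounds. Among the 21 are 5 probe sets of Mbp with alike levels, which weigh on these counts. With 1 probe set per gene, 6 of the 7 myelin genes were above the median in bulk, 6, 6 and 5 of them from the highest to the lowest input with 2 rounds, and 5 in each of the groups with 4 rounds. The 14 neuron markers gave 11, 11 and 7 with 2 rounds, and 11, 10 and 9 with 4. In the same order the 24 other genes of myelin and mature oligodendrocytes gave 17, 18 and 14 with 2 rounds, and 17, 21 and 17 with 4. The 12 astrocyte markers gave 7, 9 and 8 with 2 rounds, and 10, 9 and 10 with 4.

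The table of RefSeq gene starts on GRCm38.p6 matched 6 of the 7 genes, all but Mbp. The 250 bases before the start are shown for Mobp and Opalin, since they are the genes besides Mbp with a probe set past the test below. Capitals mark the letters ACAAAG, or CTTTGT where they lie on the other strand, the core that SOX factors such as the oligodendrocyte regulator SOX10 bind. The Mobp window is chr9:120149492-120149741 on the plus strand, and the Opalin window is chr19:41077114-41077363 on the minus strand.
Mobp: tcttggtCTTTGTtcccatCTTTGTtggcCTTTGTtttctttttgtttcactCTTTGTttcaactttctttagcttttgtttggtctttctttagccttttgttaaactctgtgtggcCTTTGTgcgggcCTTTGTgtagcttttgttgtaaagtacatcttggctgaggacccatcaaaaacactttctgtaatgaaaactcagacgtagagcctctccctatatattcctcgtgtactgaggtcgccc
Opalin: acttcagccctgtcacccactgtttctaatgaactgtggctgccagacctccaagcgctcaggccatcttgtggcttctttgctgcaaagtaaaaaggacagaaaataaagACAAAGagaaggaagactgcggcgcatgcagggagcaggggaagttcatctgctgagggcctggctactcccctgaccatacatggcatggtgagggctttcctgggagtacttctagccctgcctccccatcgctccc
The letters occur 6 times in the Mobp window and 1 time in that of Opalin. Among all 32851 starts in the table, 16.5% hold them at least 1 time, and 1 start, that of Mobp itself, holds 6 or more. Both strands were searched. The 6 genes that matched have 8 starts, and the letters occur before 5 of these starts, which belong to 4 genes. These matches describe the sequence only, and the arrays measured no binding.

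Mbp gave the largest differences between inputs, and its probe sets did not move together. The probe set with the highest mean, 1425264_s_at, read 2.81 in bulk and 3.11 in the 10 pg array after 2 rounds. It read 3.95, 3.44 and 4.03 at 1 pg and 4.13, 0.99 and 4.13 at 0.1 pg after 2 rounds. With 4 rounds the levels were 0.57, 0.97 and 1.80 at 10 pg, 2.75, 3.59 and 0.62 at 1 pg, and 3.89, 4.14 and 4.27 at 0.1 pg. The 0.1 pg arrays after 4 rounds all lay above the 10 pg arrays, and the rise was 2.99 ± 0.782 (standard error, adjusted p = 0.0260 in limma). When each of the 6 arrays was left out in turn, the size of the rise held, at 2.72 to 3.33, but the call mostly did not. The rise passed in limma only without replicate 3 of 10 pg (adjusted p = 0.0297), and each of these fits has 1 array fewer. The limma adjusted p was 0.114 and 0.0831 without replicates 1 and 2 of 10 pg, and 0.0703, 0.0839 and 0.0705 without replicates 1, 2 and 3 of 0.1 pg. The suffix _s in its name marks probes shared by transcripts of more than 1 gene.

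Another Mbp probe set, 1433532_a_at, moved the opposite way. It read 4.46 in bulk and 5.68 in the 10 pg array after 2 rounds, and 4.09, 3.96 and 2.19 at 10 pg after 4 rounds. At 1 pg it read 1.44, -1.04 and -0.87 after 2 rounds and 2.20, -2.27 and 0.17 after 4 rounds. At 0.1 pg it read -0.72, -2.67 and -2.45 after 2 rounds and -2.46, -2.21 and 0.37 after 4 rounds. All 5 arrays of bulk or 10 pg were at 2.19 or higher, and of the 12 arrays of 1 or 0.1 pg only replicate 1 of 1 pg after 4 rounds reached that level, at 2.20. From 10 to 0.1 pg after 4 rounds the level fell by 4.85 on the log2 scale, with a standard error of 1.03 (adjusted p = 0.00848 in limma). This fall stayed past the threshold without any single array of the 2 groups, at 4.34 to 5.75 log2 units, and it missed the threshold in the methods' t-test (adjusted p = 0.0883).

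The probe sets 1436201_x_at, 1454651_x_at, 1456228_x_at and 1419646_a_at had the same order of means as 1433532_a_at at the ends of the series: the highest in the 10 pg array after 2 rounds, and lower at 0.1 than at 10 pg after 4 rounds. For 1436201_x_at the levels at 10 pg after 4 rounds were 3.92, 3.17 and 1.76 and those at 0.1 pg 1.23, -2.0 and 1.22, a difference of -2.80 that did not pass the test (limma adjusted p = 0.0931). The difference was -2.49 for 1454651_x_at (limma adjusted p = 0.0569), -1.83 for 1456228_x_at (0.165) and -1.45 for 1419646_a_at (0.197). Together with 1433532_a_at these are 5 of the 8 probe sets of Mbp. Across the 17 arrays, Pearson's r between them was 0.676 to 0.943, while r between any of the 5 and the other 3 was -0.438 to 0.291. The 5 were put together for having means over 1 log2 unit lower at 0.1 pg, so these r describe them and test nothing, and repeats of 1 mRNA preparation on shared arrays are not independent samples.

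The remaining probe sets of Mbp differed by -0.33 (1451961_a_at) and -0.57 (1425263_a_at) between 0.1 and 10 pg after 4 rounds. The level of 1451961_a_at was 4.62 in bulk, and all 16 amplified arrays were lower, from -0.35 to 3.57. Its means of 2.85, 1.94 and 2.52 at 10, 1 and 0.1 pg after 4 rounds overlapped in their arrays. The difference of the amplified groups from bulk, -2.52 ± 0.952, was not past the threshold (limma adjusted p = 0.246). The level of 1425263_a_at stayed between -2.0 and 0.32, near or below the array median throughout. When the median of the 8 probe sets stood for the gene, Mbp fell by 2.04 between 10 and 0.1 pg after 4 rounds (limma adjusted p = 0.0383), the opposite sign to its probe set with the highest mean.

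**Figure D1:**
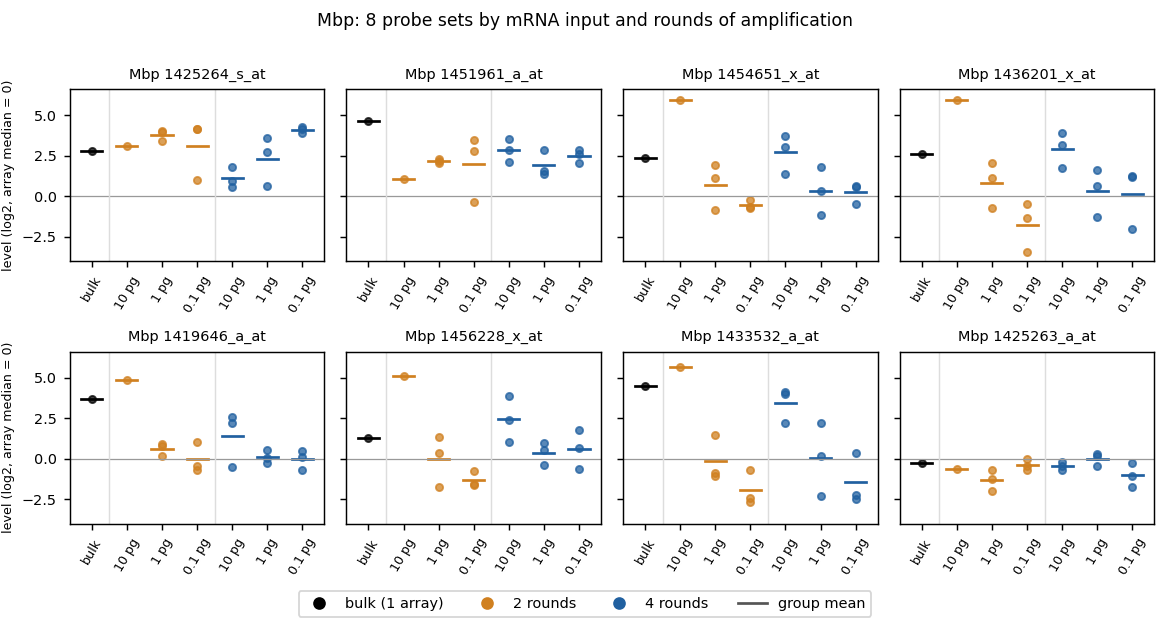
Levels of the 8 probe sets of Mbp on the 17 arrays, in log2 units with each array's median at 0 (vertical axes), by mRNA input (horizontal axes), for bulk (black), 2 rounds (orange) and 4 rounds (blue); points are arrays and bars are group means. The first panel, 1425264_s_at, is highest at 0.1 pg after 4 rounds (mean 4.10), while 5 panels are highest in the 10 pg array after 2 rounds, between 4.83 and 5.96.

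Mobp also gave unlike readings from its 5 probe sets. The one with the highest mean, 1436263_at, read 0.85 in bulk and 1.26 in the 10 pg array after 2 rounds. It read 1.77, 1.94 and 2.45 at 1 pg and 1.46, 1.47 and 3.02 at 0.1 pg after 2 rounds, and after 4 rounds 1.31, 0.98 and 1.81 at 10 pg, 1.77, 2.39 and 2.16 at 1 pg and 2.58, 1.78 and 2.61 at 0.1 pg. Bulk was the lowest of the 17 arrays. The difference of the amplified groups from bulk was 1.00 ± 0.608 and did not pass the test (limma adjusted p = 0.517).

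For 2 other probe sets of Mobp, bulk was the highest of the 17 arrays. The level of 1433785_at was 3.16 in bulk and 1.10 in the 10 pg array after 2 rounds, then -0.49, -0.30 and 0.35 at 1 pg and 0.57, 0.00 and -0.48 at 0.1 pg after 2 rounds. The 4-round arrays read 1.94, 0.18 and -0.43 at 10 pg, -0.22, -0.58 and -0.80 at 1 pg, and -1.26, -1.49 and -1.47 at 0.1 pg. The 0.1 pg arrays after 4 rounds were the lowest of all and did not overlap with those of any other group. The mean of the amplified groups minus bulk was -3.23 ± 0.676 (adjusted p = 0.0306 in limma), and from 10 to 0.1 pg after 4 rounds the level fell by 1.97 (standard error 0.532, adjusted p = 0.0304). Without replicate 1 of 10 pg after 4 rounds, the array at 1.94, the latter difference was -1.28 (adjusted p = 0.166). It was also not past the threshold without replicate 2 of 10 pg (adjusted p = 0.0582) or without replicate 1, 2 or 3 of 0.1 pg (0.0815, 0.0979 and 0.0736).

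The probe set 1421010_at read 2.70 in bulk and -0.62 in the 10 pg array after 2 rounds, and the other amplified arrays lay between -2.37 and 0.41. It fell by 3.52 from bulk to the amplified groups, with a standard error of 0.767 (adjusted p = 0.0356 in limma). The adjusted p was 0.0505 without replicate 2 and 0.0552 without replicate 3 of 1 pg after 2 rounds, and 0.0548 without replicate 2 of 0.1 pg after 4 rounds. Bulk is 1 array whose spread was taken from the other groups, so a deviation of that array and an effect of amplification cannot be told apart. The level of 1441308_at was -0.95 in bulk, and its amplified arrays lay between -1.66 and 1.93. The level of 1450088_a_at was 0.48 in bulk, and between -2.0 and 0.78 after amplification. Neither passed a test in any of the 8 comparisons. With the median of its probe sets standing for Mobp, the difference from bulk was -0.98 (limma adjusted p = 0.458).

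Opalin was read by 2 probe sets with opposite orders. The level of 1435854_at was 1.42 in bulk and 1.71 in the 10 pg array after 2 rounds, 0.42, 0.99 and -0.05 at 1 pg and -1.15, 0.99 and -0.23 at 0.1 pg after 2 rounds. The 4-round arrays read 2.17, 2.22 and 1.56 at 10 pg, 1.23, 2.18 and 0.91 at 1 pg, and -0.30, -0.24 and -0.11 at 0.1 pg. The arrays of 10 and 1 pg after 4 rounds overlapped, and those of 0.1 pg lay below both. From 10 to 0.1 pg the level fell by 2.20 (standard error 0.526, adjusted p = 0.0163 in limma). The size of this fall stayed between 2.08 and 2.42 log2 units without any single array, but the adjusted p was 0.0723 or 0.0667 without replicate 1 or 2 of 10 pg, and 0.0622 or 0.0604 without replicate 1 or 2 of 0.1 pg.

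The other probe set of Opalin, 1447487_at, was low in bulk, at -1.98, and in the 10 pg array after 2 rounds, at -2.31. It read -0.58, 0.00 and 0.88 at 1 pg and 0.00, -0.74 and 0.00 at 0.1 pg after 2 rounds, and after 4 rounds -1.82, -2.02 and -1.05 at 10 pg, -2.24, -0.94 and -3.07 at 1 pg and -0.06, 0.45 and -1.08 at 0.1 pg. At 1 pg it fell by 2.18 between 2 and 4 rounds (standard error 0.580, adjusted p = 0.0482 in limma), with no overlap of the 3 and 3 arrays. This call was lost without any 1 of replicates 1, 2 and 3 of 2 rounds (adjusted p = 0.0793, 0.0999 and 0.171) or of replicates 1 and 3 of 4 rounds (0.147 and 0.191). The median of the 2 probe sets differed by -0.60 at 1 pg between rounds (limma adjusted p = 0.430). Between 0.1 and 10 pg after 4 rounds this median differed by -0.40 (limma adjusted p = 0.596). The percentile of 1447487_at was 8.08 in bulk, and its mean was 11.1 at 1 pg after 4 rounds. Whether such low levels are above background was not tested.

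Cnp was highest in bulk by its probe set with the highest mean, 1418980_a_at, at 2.32. It read 1.57 in the 10 pg array after 2 rounds, 0.77, 0.58 and 1.52 at 1 pg and 0.81, -0.47 and 0.07 at 0.1 pg after 2 rounds. With 4 rounds the levels were -0.69, -0.12 and 0.08 at 10 pg, -0.58, 0.05 and -0.15 at 1 pg and 0.61, 0.59 and 0.93 at 0.1 pg. All 16 amplified arrays were below bulk, and after 4 rounds the 0.1 pg arrays were above all those of 10 and 1 pg. Neither the difference from bulk, -1.84 ± 0.557 (limma adjusted p = 0.137), nor that between 0.1 and 10 pg after 4 rounds, 0.96 ± 0.439 (0.184), passed the test. The level of 1449296_a_at ranged only from -0.68 to 0.82. That of 1437341_x_at was 4.56 in the 10 pg array after 2 rounds, 0.68 in bulk and between -1.71 and 1.12 in the other 15 arrays.

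Cldn11 kept its place in the upper part of every array. Its probe set 1416003_at read 3.60 in bulk, 3.97 in the 10 pg array after 2 rounds, 3.16, 3.69 and 3.89 at 1 pg and 2.89, 2.05 and 2.01 at 0.1 pg after 2 rounds. After 4 rounds it read 4.27, 3.68 and 2.60 at 10 pg, 4.88, 1.86 and 4.53 at 1 pg and 4.06, 3.12 and 2.23 at 0.1 pg. It lay between the 84.4th and the 96.5th percentile of all 17 arrays, at the 92.8th in bulk. After 2 rounds the 0.1 pg arrays all lay below the 1 pg arrays, with a difference of -1.26 ± 0.702 (limma adjusted p = 0.370). No comparison passed the test, and the difference from bulk was -0.22 ± 0.891 (limma adjusted p = 0.951), an uncertainty of nearly 1 log2 unit.

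Mag was above the array median on all 17 arrays, at 1.30 in bulk and 2.23 in the 10 pg array after 2 rounds. It read 2.15, 2.25 and 0.88 at 1 pg and 1.26, 1.96 and 0.14 at 0.1 pg after 2 rounds, and after 4 rounds 2.41, 0.23 and 0.19 at 10 pg, 2.05, 1.80 and 2.05 at 1 pg and 1.82, 1.22 and 2.58 at 0.1 pg. The 3 arrays of 10 pg after 4 rounds spanned nearly the whole range of the gene, from 0.19 to 2.41, while those of 1 pg after 4 rounds lay between 1.80 and 2.05. No comparison passed the test.

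Mog was the one gene whose only probe set lay in the lower part of the arrays. It read -1.45 in bulk, at the 15.4th percentile, and -0.62 in the 10 pg array after 2 rounds. It read -1.39, -1.71 and -1.55 at 1 pg and -2.83, 0.39 and -1.35 at 0.1 pg after 2 rounds, and after 4 rounds -1.33, -2.76 and -1.35 at 10 pg, -1.79, -2.20 and -0.80 at 1 pg and -2.04, -1.57 and -3.14 at 0.1 pg. It was below the median on 16 of 17 arrays. Every group overlapped with the next in the order of means and no comparison passed the test. Detection calls were not used here, so whether this low level is above background was not tested.

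**Figure D2:**
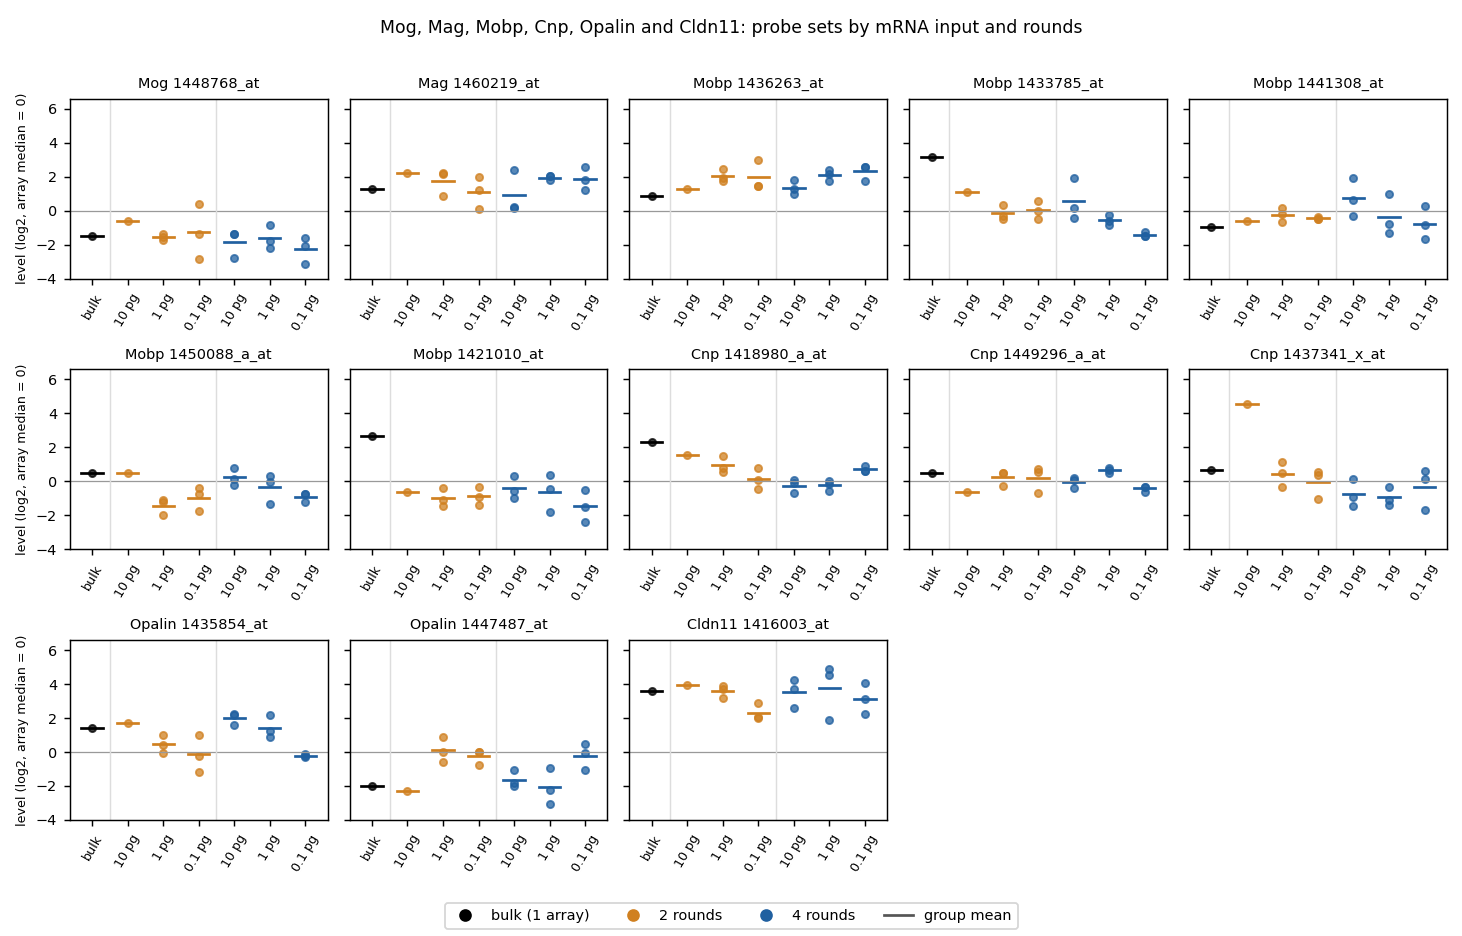
Levels of the 13 probe sets of Mog, Mag, Mobp, Cnp, Opalin and Cldn11 on the 17 arrays, in log2 units with each array's median at 0 (vertical axes), by mRNA input (horizontal axes); colors, points and bars are as for Mbp. Mobp 1433785_at and 1421010_at are highest in bulk (3.16 and 2.70), Cldn11 is at 1.86 or higher on every array, and Mog is above 0 on 1 array.

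The comparison of 0.1 with 10 pg after 4 rounds asks how the smallest input altered the readings at equal amplification. Of the 21 myelin probe sets 4 passed the test (19.0%), against 8.86% of all probe sets. There were 3 lower (4.83% of all probe sets were called lower), those of Mbp, Mobp and Opalin described above, and 1 higher (4.04% of all), that of Mbp. The median difference was -0.57 over the 21 probe sets and 0.10 over all. Of the 21, 15 were negative, among them the 5 alike probe sets of Mbp, and the share of all probe sets was not counted. The count of 4 became 1 without replicate 1 or 2 of 10 pg or without replicate 1 or 2 of 0.1 pg, 2 without replicate 3 of 0.1 pg and 6 without replicate 3 of 10 pg, where Mbp 1454651_x_at and 1419646_a_at were added. The fall of Mbp 1433532_a_at was among the calls in all 6 of these fits. On the same arrays the probe sets for the 3′ and the 5′ end of b-actin differed by 1.13 ± 0.551 (SD, n = 3) at 10 pg and by -0.81 ± 0.156 (SD, n = 3) at 0.1 pg. For Gapdh the difference was 4.73 ± 0.207 at 10 pg and 3.71 ± 0.0292 at 0.1 pg, and for the transferrin receptor 4.74 ± 0.183 and 6.62 ± 0.769. These ends moved in unlike directions, and their part in the myelin differences was not tested.

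The other 2 steps between inputs at 4 rounds, and the step from 1 to 0.1 pg at 2 rounds, gave no myelin probe set past the threshold. Between 1 and 10 pg 0 of 21 passed the test, against 0.657% of all probe sets. The largest difference was that of Mbp 1433532_a_at, -3.38 ± 1.03 (limma adjusted p = 0.200), 4 (19.0%) had an unadjusted p under 0.05 in limma, against 9.51% of all, and the methods' t-test called 0 of the 21 and 0 of all 45037. Between 0.1 and 1 pg 0 of 21 passed, against 2.77% of all. There the largest difference was that of Opalin 1447487_at, 1.86 ± 0.580 (limma adjusted p = 0.0946), 6 (28.6%) had an unadjusted p under 0.05 in limma, against 18.8% of all, and the methods' t-test again called 0 of all probe sets. Without replicate 2 of 1 pg this probe set passed (2.43, limma adjusted p = 0.0252). After 2 rounds, 0 of 21 passed between 0.1 and 1 pg, against 1.56% of all, 1 (4.76%) had an unadjusted p under 0.05 in limma, against 17.4% of all, and the methods' t-test called 0 of all probe sets here too. The largest difference was that of Mbp 1436201_x_at, -2.57 ± 1.01 (limma adjusted p = 0.197). These comparisons share arrays, so their values are given side by side and are not independent.

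The number of rounds was compared at equal input. At 1 pg, 1 of 21 (Opalin 1447487_at, lower after 4 rounds) passed the test, against 3.55% of all probe sets. At 0.1 pg 0 of 21 passed, against 3.15% of all, with 2 (9.52%) at an unadjusted p under 0.05 in limma, against 21.2% of all, and 0 of all probe sets called by the methods' t-test. The largest difference there was that of Mbp 1456228_x_at, 1.92 ± 0.805 (limma adjusted p = 0.181). The median difference over the 21 was -0.05 at 1 pg and 0.07 at 0.1 pg. The test of whether the effect of rounds differed between 0.1 and 1 pg called 0 of 21, against 3.59% of all, with 4 (19.0%) at an unadjusted p under 0.05 in limma, against 20.9% of all. The methods' t-test was not run for it. Its largest value was 2.50 ± 1.11 for Mbp 1425264_s_at (limma adjusted p = 0.209), and without replicate 2 of 1 pg after 4 rounds 1 probe set passed, Opalin 1447487_at.

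Against bulk, 2 of 21 passed the test over the mean of the 6 amplified groups, against 1.10% of all probe sets. Both were the Mobp probe sets named above, and both were lower (1.03% of all). Differences from bulk were negative for 16 of 21, with a median of -0.46, against 0.10 over all probe sets. By group, 7 of 21 were below bulk at 10 pg after 2 rounds, 16 at both 1 and 0.1 pg after 2 rounds, 14 at both 10 and 1 pg after 4 rounds and 16 at 0.1 pg after 4 rounds. All these counts rest on the same bulk array, and the 5 alike probe sets of Mbp weigh on them. The share of all probe sets below bulk was not counted. Their median difference from bulk lay between -0.01 (10 pg after 2 rounds) and 0.14 (0.1 pg after 2 rounds) in the 6 groups. The count of 2 became 1 without replicate 2 or 3 of 1 pg after 2 rounds or without replicate 2 of 0.1 pg after 4 rounds.

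**Figure D3:**
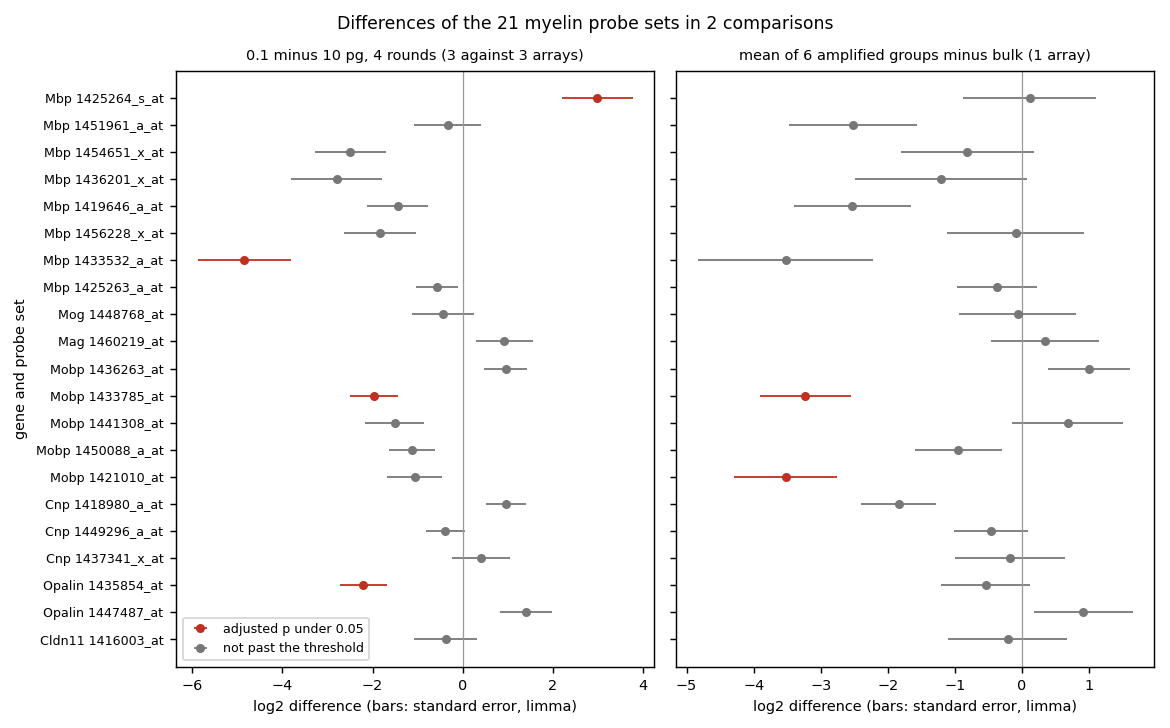
Log2 difference of each of the 21 probe sets (rows) between 0.1 and 10 pg after 4 rounds (left, 3 arrays each) and between the mean of the 6 amplified groups and bulk (right, 1 bulk array); bars are standard errors from limma and red marks an adjusted p under 0.05. On the left Mbp holds both the lowest value (-4.85) and the highest (2.99), and on the right the 2 red points are Mobp (-3.52 and -3.23).

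How well repeated amplifications of the same input repeated each other differed between the genes. The SD within the 5 groups of 3 arrays, pooled, had a median of 0.866 over the 21 probe sets and of 0.695 over all, and 14 of the 21 were above the latter. For Mbp 7 of 8 were above it, led by 1433532_a_at (1.53, the 98.9th percentile of all probe sets) and 1436201_x_at (1.49, the 98.6th). The most repeatable were those of Cnp, 1449296_a_at (0.430, the 10.6th percentile) and 1418980_a_at (0.441, the 11.6th). By group, the median SD of the 21 was 0.500 at 1 pg and 0.767 at 0.1 pg after 2 rounds, where all probe sets had 0.496 and 0.844. After 4 rounds it was 0.816, 0.720 and 0.679 at 10, 1 and 0.1 pg, where all probe sets had 0.418, 0.525 and 0.438. Thus the myelin probe sets spread more than the usual probe set after 4 rounds and about as much after 2 rounds, which describes these groups of 3 and was not tested.

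**Figure D4:**
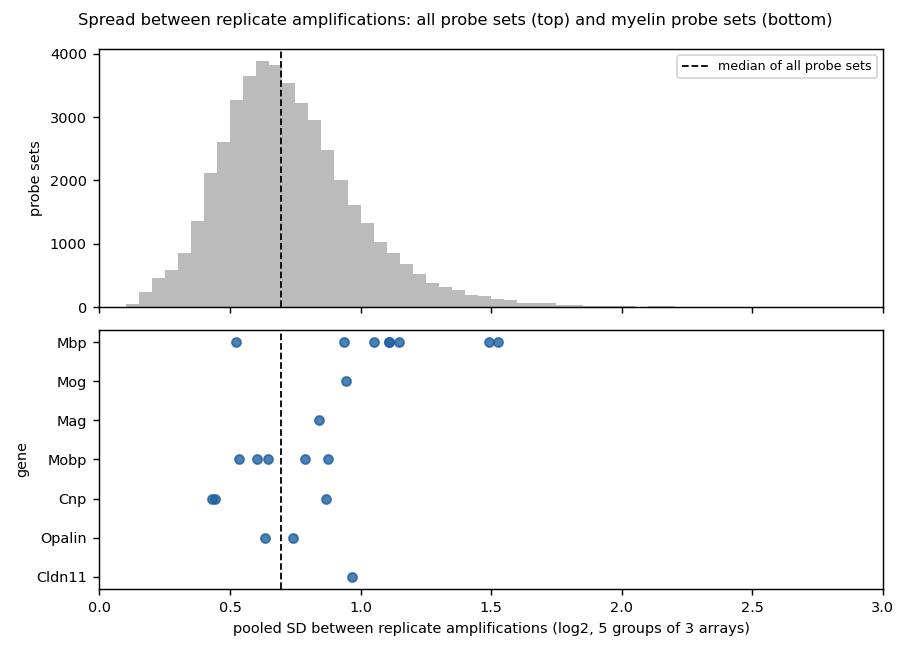
Pooled SD between replicate amplifications in log2 units (horizontal axis), for all probe sets as a histogram (top) and for the myelin probe sets by gene (bottom, 1 point each); the dashed line is the median of all probe sets, 0.695. Of the Mbp points 7 of 8 lie to the right of the line, reaching 1.53, while 2 of the 3 Cnp points lie near 0.43.

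Across the 17 arrays the 7 genes, each read by its probe set with the highest mean, shared little of their variation. The closest pair was Mbp and Cnp with Pearson's r of 0.548, followed by Mobp with Mbp (0.497). The closest partner of both Mag and Cldn11 was the other of the pair, with r of 0.261, and that of Mog and Opalin likewise, with 0.237. The lowest r was -0.668, between Mbp and Opalin. These values depend on the probe set that stands for Mbp, here 1425264_s_at. Over the 8 probe sets of Mbp, r ran from -0.668 to 0.591 with Opalin, from -0.29 to 0.548 with Cnp and from -0.698 to 0.497 with Mobp. With the median of each gene's probe sets, chosen after seeing the data, r was -0.09 for Mbp and Opalin, 0.366 for Mbp and Cnp and 0.626 for Mbp and Mobp. Among 18186 other genes, those most like the mean of the 7 were Ypel3 (r = 0.844), Dlgap4 (0.840), Ghrl (0.837), Ubqln1 (0.818) and Hnrnpr (0.818). Over the 16 amplified arrays alone their r were 0.840, 0.834, 0.848, 0.812 and 0.909. With the medians, the r of Ypel3, Dlgap4, Ghrl, Ubqln1 and Hnrnpr were 0.670, 0.686, 0.477, 0.375 and 0.484, at rank 388 or lower, so their place rests on the choice of probe set. These are the highest of many values over 17 points that share 1 mRNA preparation, and they describe the arrays only.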

How the data were processed

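Affymetrix mouse arrays measured 1 cortical mRNA preparation in 17 hybridizations (7 groups, from the labels). The authors deposited log2 expression values per probe set, which RMA 2.0 made from the probe intensities (by their upper decile, per the methods). The deposited values are neither median centered nor scaled (array medians 5.64 to 6.01). Both steps were therefore done here as the methods describe them, with the span of the 10th to the 90th percentile as the divisor, followed by a factor of 4.63 (the mean span). Ties or compression in the deposited values carry over. Of 45101 probe sets, 64 controls were left out. Symbols came from the array's annotation: 34945 probe sets had 1 symbol, 932 several and 9160 none. No 2 arrays shared over 0.926% of their values. The columns without a sample numbered 0.

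All 45037 probe sets were fitted with limma 3.58.1 in R 4.3.3 (7 group means over 17 arrays, contrasts, eBayes, 16.4 total degrees of freedom), with Benjamini-Hochberg adjustment over all probe sets and a threshold of 0.05. The single arrays borrow the spread of the other groups. Precision is limited by how few arrays a group has. The script was tested on simulated data. Tables and figures were made with python 3.11.15, numpy 2.4.6, pandas 2.3.3 and matplotlib 3.10.9.

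The text gives all 7 members, each probe set and comparison past the threshold or otherwise the largest difference of a comparison, up to 3 genes of each other list past the threshold, by size, and the 5 genes most alike. The members and lists were chosen with earlier results of these data known. Alternatives were quantile normalization, centering without scaling, the values as deposited, a filter on probe sets below the median, a block for the replicate number, a fit of only the groups compared, the methods' t-test, their false discovery rate of 0.1%, 1 probe set per gene (that with the highest mean), a median over each gene's probe sets, no probe sets with a suffix _x, _s or _a, and leaving out the 10 pg array after 2 rounds or each replicate. For the correlations, the median over each gene's probe sets was chosen after seeing the data.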

Additional observations from a re-analysis of the deposited data

How the results depend on the processing

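The number of myelin probe sets called in a comparison stayed within 1.5 times its value, or at 0, under the scalings and fits not named here. Between 0.1 and 10 pg after 4 rounds it was 4, and it was 2 with the methods' t-test, 2 with 1 probe set per gene, 2 without probe sets of suffix _x, _s or _a, 0 at a false discovery rate of 0.1%, and 1 to 6 when a replicate was left out. Between 2 and 4 rounds at 1 pg it was 1, and it was 0 with quantile normalization, without probe sets below the median, in the compared groups alone, with the methods' t-test, at a false discovery rate of 0.1% and with 1 probe set per gene, and 0 to 1 when a replicate was left out. Against bulk it was 2, and it was 0 without probe sets below the median, at a false discovery rate of 0.1% and with 1 probe set per gene, and 1 to 2 when a replicate was left out. Leaving out a replicate gave 0 to 1 between 0.1 and 1 pg after 4 rounds and 0 to 1 for the difference in the effect of rounds, both 0 otherwise. Between 0.1 and 10 pg after 4 rounds the methods' t-test called 1580 of all 45037 probe sets, where limma called 3992. For 2 against 4 rounds at 1 pg it called 1 of all 45037, where limma called 1599. Shares of all probe sets under the other settings are not given here. Fewer probe sets were tested with 1 per gene and under the filters. The filter on probe sets below the median and 1 per gene both left out Mobp 1433785_at and 1421010_at and Opalin 1447487_at. Their means were -0.01, -0.64 and -0.97. Taking 1 per gene also left out Mbp 1433532_a_at, and the suffix filter left out Mbp 1425264_s_at and 1433532_a_at. These calls were thus not tested again under those settings. The 4 calls without probe sets below the median do not include Mobp 1433785_at. Other causes were not tested. With the median of the gene's probe sets, the rise of Mbp 1425264_s_at between 10 and 0.1 pg turned into a difference of -2.04.

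The replicate numbers do not pair the arrays: the deviations of 30 same-numbered pairs had r of -0.199 to 0.139, and 3 of 15 arrays correlated best with their own number. With the replicate block the count at 1 pg between rounds was 0 in place of 1, and no other count of calls changed by over 1.5 times. The block was not run against bulk, which has 1 array. The methods' t-test was not run against bulk or for the difference in the effect of rounds, and the compared groups alone were not fitted against bulk. Under quantile normalization the 49 group means (7 genes by their highest-mean probe set, 7 groups) all moved by less than the group's SD, or, for the groups of 1 array, the SD pooled over the other groups.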

Other observations

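Other genes of the oligodendrocyte lineage were measured on the same arrays, each by its probe set with the highest mean. Between 0.1 and 10 pg after 4 rounds limma called 0 of 24 other genes of myelin and mature oligodendrocytes (5 at an unadjusted p under 0.05) and 0 of 11 precursor genes and transcription factors (3 at that p), against 9.97% of all genes. Their median differences were -0.38 and 0.11, against 0.13 over all genes. Between 2 and 4 rounds at 0.1 pg 3 of the 24 passed, against 3.35% of all genes. Bcas1, a gene of newly myelinating oligodendrocytes, fell by 2.71 and Gjb1, the gap junction protein connexin 32, fell by 1.77, while Ermn, a cytoskeletal protein of the sheath, rose by 1.92 (limma adjusted p = 0.0146, 0.0457 and 0.0337). Lhfpl3, known from oligodendrocyte precursors, rose by 2.38 in that comparison (0.0463).

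Cholesterol is a main lipid of myelin. Of 13 enzymes that make it, 3 (23.1%) passed between 0.1 and 10 pg after 4 rounds, against 9.97% of all genes. Lss rose by 1.41 and Mvk rose by 1.58, while Hmgcs1 fell by 2.28 (limma adjusted p = 0.0459, 0.0333 and 0.0340). From 2 to 4 rounds at 1 pg 3 (23.1%) passed, against 4.14% of all genes. There Hmgcs1 rose by 3.35, Nsdhl rose by 1.92 and Mvk fell by 1.89 (limma adjusted p = 0.0137, 0.0331 and 0.0289). From 2 to 4 rounds at 0.1 pg 2 (15.4%) passed, against 3.35% of all genes. Hmgcs1 rose by 2.94 and Mvk rose by 2.30 in this step (limma adjusted p = 0.0220 and 0.0121). The sign of Mvk thus depended on the comparison. At 0.1 against 10 pg after 4 rounds, 5 of 14 neuron markers (35.7%) were lower and 0 higher. Of all genes 4.99% were lower there. The largest falls among these markers were those of Eno2 (-5.38), Nefl (-5.05) and Snap25 (-3.65). Of 12 astrocyte markers 2 (16.7%) passed in the same comparison, against 9.97% of all genes, with Glul lower (-2.25) and Fgfr3 higher (1.90). Of 4 Schwann cell markers limma called 0 there (0 at an unadjusted p under 0.05).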
